A study of Mus musculus with 48 samples.

Results

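Complement and coagulation proteins of the plasma are made largely by hepatocytes, and 36 mouse genes that encode them are described here. They were chosen by name from a list of secreted complement and coagulation proteins, with earlier results of these data known, and were found by Ensembl identifier among the 55416 genes counted in each liver. All 36 were found and all 36 passed the filter on low counts. The livers came from 2 studies of LXRα, the oxysterol receptor encoded by Nr1h3, all labelled C57Bl/6J, and each of the 6 genotype groups held 8 livers. In the DN study mice were wild type (DN:WT), heterozygous (DN:HET) or homozygous (DN:HOM) for a knock-in allele that replaces a tryptophan of the ligand-binding domain by arginine and acts as a dominant negative. In the KO study mice were wild type (KO:WT), heterozygous (KO:HET) or homozygous (KO:HOM) for a knockout of LXRα. Both alleles are present in every cell of the animal. Mice of both studies, wild type included, were male and had western diet for 8 weeks from 8 weeks of age until collection at 16 weeks. The KO line came from a mixed background crossed back to C57BL/6 and was kept at another institute than the DN line, so that line, house and study cannot be told apart.

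Complement is a cascade of plasma proteases that ends in deposition of C3 on a target and in assembly of a pore from the terminal components. It is started by mannose-binding lectins with their proteases (Mbl1, Mbl2, Masp1, Masp2), by the classical route through C4 and C2, or by the alternative route with factor B (Cfb). Coagulation is a parallel cascade that runs from factor XII or factor VII to thrombin (F2) and fibrin (Fga, Fgb, Fgg), and it is held in check by antithrombin (Serpinc1), protein C (Proc) and protein S (Pros1). Plasmin (from Plg) then digests fibrin. In liver many of these genes are known as acute-phase genes, driven in hepatocytes by C/EBP factors and STAT3 on a base of HNF4α.

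The mutated gene was read first. In KO:HOM livers Nr1h3 reached 26.98 ± 1.99 CPM (SD, n = 8), where CPM is the read count scaled by edgeR to a common library size after TMM normalization, against 93.5 ± 8.82 (n = 8) in KO:WT. The groups did not overlap. KO:HET livers lay between them (log2 fold change −0.67 ± 0.06 SE against KO:WT, edgeR adjusted p = 5.99e-11). In the DN study, where the allele changes the protein and leaves the gene in place, Nr1h3 was 72.8 ± 3.56 CPM in DN:HOM (n = 7) against 91.7 ± 5.04 in DN:WT (n = 7), so its level does not check these labels in the same way.

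A pair of DN livers stood apart from their labels. In the library labelled DN:WT animal 10, Mbl2 was 98.8 CPM and C3 6719 CPM, within the DN:HOM range. In the library labelled DN:HOM animal 12, Mbl2 was 358 CPM and C3 4003 CPM, the first within the DN:WT range and the second between the ranges. Of the DN livers, the other 22 could be matched to the study's own source data and these 2 could not. Scd1, a desaturase gene, took up 0.15% of reads in the first and 3.93% in the second, and their TMM factors (library scaling factors) were 1.25 and 0.93, where DN:HOM livers had 1.21 to 1.34 and DN:WT livers 0.92 to 0.97. Whether the 2 labels were exchanged was not tested. Labels were kept, and the results below rest on the other 46 livers (7 DN:WT, 7 DN:HOM and 8 in each other group), with values for all 48 livers beside them where they matter. Reads on genes ran from 5332897 to 16961379 per liver, and 2 KO livers lay under 10000000. Reads that named no gene made up 24.0% to 35.0%, with a median of 30.1% in DN:WT, 24.9% in DN:HOM, 26.6% in KO:WT and 25.5% in KO:HOM. The hepatocyte markers fixed as a check of the tissue were abundant in every group, with albumin at 2.60% to 5.84% of reads in homozygous and wild-type livers of both studies.

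Several members lie side by side in the genome (GRCm39). The fibrinogen genes Fgg, Fga and Fgb share a stretch of chromosome 3, at chr3:82915030-82922363, chr3:82933383-82940934 and chr3:82947448-82957170. C8b (chr4:104623328-104662573) and C8a (chr4:104672876-104733614) lie 10303 bases apart on opposite strands. F11 (chr8:45693697-45715177) lies 4549 bases from Klkb1 (chr8:45719726-45747900), F7 lies 1484 bases from F10, and Kng2 lies 28383 bases from Kng1. C2 (chr17:35081578-35117241) and Cfb (chr17:35074852-35081559) lie end to end. All 36 are annotated as protein coding, and the reads counted are those on exons.

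Overlapping annotation limits what could be counted for 3 members. The transcript Gm20547 runs through Cfb and C2 on their strand and shares 65.7% of the exon bases of Cfb and 38.4% of those of C2, and Gm45753 shares 43.2% of those of Klkb1. A read that fits both genes is assigned to neither in this kind of counting, and Gm20547 stood at 0 CPM in each of the 46 livers. The levels of Cfb (10 to 87 reads per liver over all 48) and C2 (46 to 511 reads) are therefore too low as measures of the genes, and comparisons between livers rest on the exons not shared. C4b and C4a are near copies, so reads may be lost or split between them.

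Promoter sequence was at hand for 28 of the 36 members (RefSeq, build GRCm38.p6, 250 bases before to 50 after the start). The promoters below belong to genes that the later results turn on. C3 and Pros1 rose in DN:HOM livers, Mbl2 and Masp2 fell, C8b and F11 varied together from liver to liver, and so did Fga and Fgb. Sequences run 5′ to 3′ on the gene's strand, and capitals mark matches to the motifs named below them.
C3 (chr17:57228087-57228386, minus strand): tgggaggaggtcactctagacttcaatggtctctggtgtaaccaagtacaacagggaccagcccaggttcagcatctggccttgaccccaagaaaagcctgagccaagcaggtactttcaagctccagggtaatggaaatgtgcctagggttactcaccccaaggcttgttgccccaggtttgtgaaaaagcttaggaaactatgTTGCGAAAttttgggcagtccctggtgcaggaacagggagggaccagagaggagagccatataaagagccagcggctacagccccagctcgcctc
Pros1 (chr16:62854057-62854356, plus strand): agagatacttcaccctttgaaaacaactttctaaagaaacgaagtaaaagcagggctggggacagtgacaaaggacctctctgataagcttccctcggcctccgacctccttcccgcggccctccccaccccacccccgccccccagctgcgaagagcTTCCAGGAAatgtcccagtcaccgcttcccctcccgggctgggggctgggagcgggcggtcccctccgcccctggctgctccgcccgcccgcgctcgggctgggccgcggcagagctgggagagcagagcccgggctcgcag
Mbl2 (chr19:30232678-30232977, plus strand): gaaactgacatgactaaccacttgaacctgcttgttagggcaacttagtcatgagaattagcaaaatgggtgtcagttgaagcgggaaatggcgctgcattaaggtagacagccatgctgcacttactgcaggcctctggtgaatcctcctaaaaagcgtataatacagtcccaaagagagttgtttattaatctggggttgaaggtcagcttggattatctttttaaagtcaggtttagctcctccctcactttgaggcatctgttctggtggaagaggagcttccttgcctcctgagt
Masp2 (chr4:148602294-148602593, plus strand): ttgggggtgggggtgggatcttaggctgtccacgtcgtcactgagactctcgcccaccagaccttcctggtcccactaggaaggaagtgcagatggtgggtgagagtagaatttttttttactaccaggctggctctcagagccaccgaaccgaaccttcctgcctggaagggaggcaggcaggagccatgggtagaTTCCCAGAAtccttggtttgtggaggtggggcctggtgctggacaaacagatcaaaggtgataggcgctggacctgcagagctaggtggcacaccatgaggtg
C8b (chr4:104766067-104766366, plus strand): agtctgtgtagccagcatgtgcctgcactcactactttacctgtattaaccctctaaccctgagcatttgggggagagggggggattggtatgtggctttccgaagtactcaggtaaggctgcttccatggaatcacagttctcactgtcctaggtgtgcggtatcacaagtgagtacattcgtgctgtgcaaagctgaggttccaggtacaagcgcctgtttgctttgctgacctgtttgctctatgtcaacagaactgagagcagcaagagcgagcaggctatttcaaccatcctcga
F11 (chr8:45261982-45262281, minus strand): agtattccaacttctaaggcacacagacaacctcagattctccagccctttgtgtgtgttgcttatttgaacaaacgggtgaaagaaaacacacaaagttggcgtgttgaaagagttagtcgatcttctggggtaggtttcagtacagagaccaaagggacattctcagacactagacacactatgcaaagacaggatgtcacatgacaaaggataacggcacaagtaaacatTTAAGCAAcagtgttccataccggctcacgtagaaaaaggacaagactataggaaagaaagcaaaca
Fga (chr3:83025903-83026202, plus strand): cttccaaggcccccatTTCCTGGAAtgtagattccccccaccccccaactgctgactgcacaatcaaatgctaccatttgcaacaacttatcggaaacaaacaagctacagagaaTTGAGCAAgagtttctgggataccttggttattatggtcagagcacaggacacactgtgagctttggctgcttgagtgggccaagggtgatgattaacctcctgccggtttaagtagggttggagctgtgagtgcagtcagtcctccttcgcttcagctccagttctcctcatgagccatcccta
Fgb (chr3:83049814-83050113, minus strand): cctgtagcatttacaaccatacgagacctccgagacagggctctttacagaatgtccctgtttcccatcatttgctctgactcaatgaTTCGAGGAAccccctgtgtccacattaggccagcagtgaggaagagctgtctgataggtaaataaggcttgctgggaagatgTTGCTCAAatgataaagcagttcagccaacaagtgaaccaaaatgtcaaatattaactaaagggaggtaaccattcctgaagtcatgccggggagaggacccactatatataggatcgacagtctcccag

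The motifs were searched on both strands in all 300 bases. The C/EBP motif TTGCNNAA was found in 10 of the 28 promoters (35.7%) and in 12.2% of the promoters of 27025 genes, and it is in C3, C9, F9, F11, Klkb1, Kng2, Fga, Fgb, Serpinc1 and Cpb2. The STAT3 motif TTCNNNGAA was found in 7 (25%) against 9.55%, in Masp2, C8a, Vtn, F9, Pros1, Fga and Fgb. The HNF4A motif CAAAGTCCA and the LXR repeat (AGGTCA and AGGTCA with 4 bases between) were in 0 of the 28 and in 0.555% and 0.0148% of all promoters. Fga and Fgb are the members of the printed set that hold both the C/EBP and the STAT3 letters. The windows of Mbl2 and C8b hold none of the motifs named here. A match is a description of these bases, not a binding site.

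The members span a wide range of levels. Per kilobase of exon, the fibrinogen chains led in DN:WT livers, with Fga at 1117 ± 191, Fgg at 1091 ± 155 and Fgb at 814 ± 129 CPM per kilobase (SD, n = 7), whose spreads overlap. C3, the central complement protein, followed at 623 ± 86.6, then the kininogen Kng1 at 548 ± 36.6 and plasminogen at 504 ± 42.4. The lowest levels per kilobase were those of Masp1 at 11.4 ± 1.09, Pros1 at 9.26 ± 0.69, C2 at 2.40 ± 0.33 and Cfb at 0.66 ± 0.13. Those of C2 and Cfb are held down by the shared exons described above, and the length used is the union of all annotated exons, which for Masp1 is 13632 bases.

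The first comparison asked how the dominant negative allele changed these genes when homozygous. In DN:HOM livers C2, C3 and Pros1 rose 1.79-fold to 2.05-fold, and 19 members fell, most of them modestly. The falls were led by the lectin Mbl2, the C8 chain C8g and the lectin protease Masp2, and took in most vitamin K dependent and contact factors. The fibrinogen chains, the other terminal components and factor I did not pass the test. The 19 members lower set against 30% of all 15711 genes tested being called lower, and the 3 higher against 29.1% called higher (edgeR quasi-likelihood test, Benjamini-Hochberg adjusted p under 0.05). The median log2 fold change was −0.26 over the members and −0.01 over all genes tested.

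**Figure D1:**
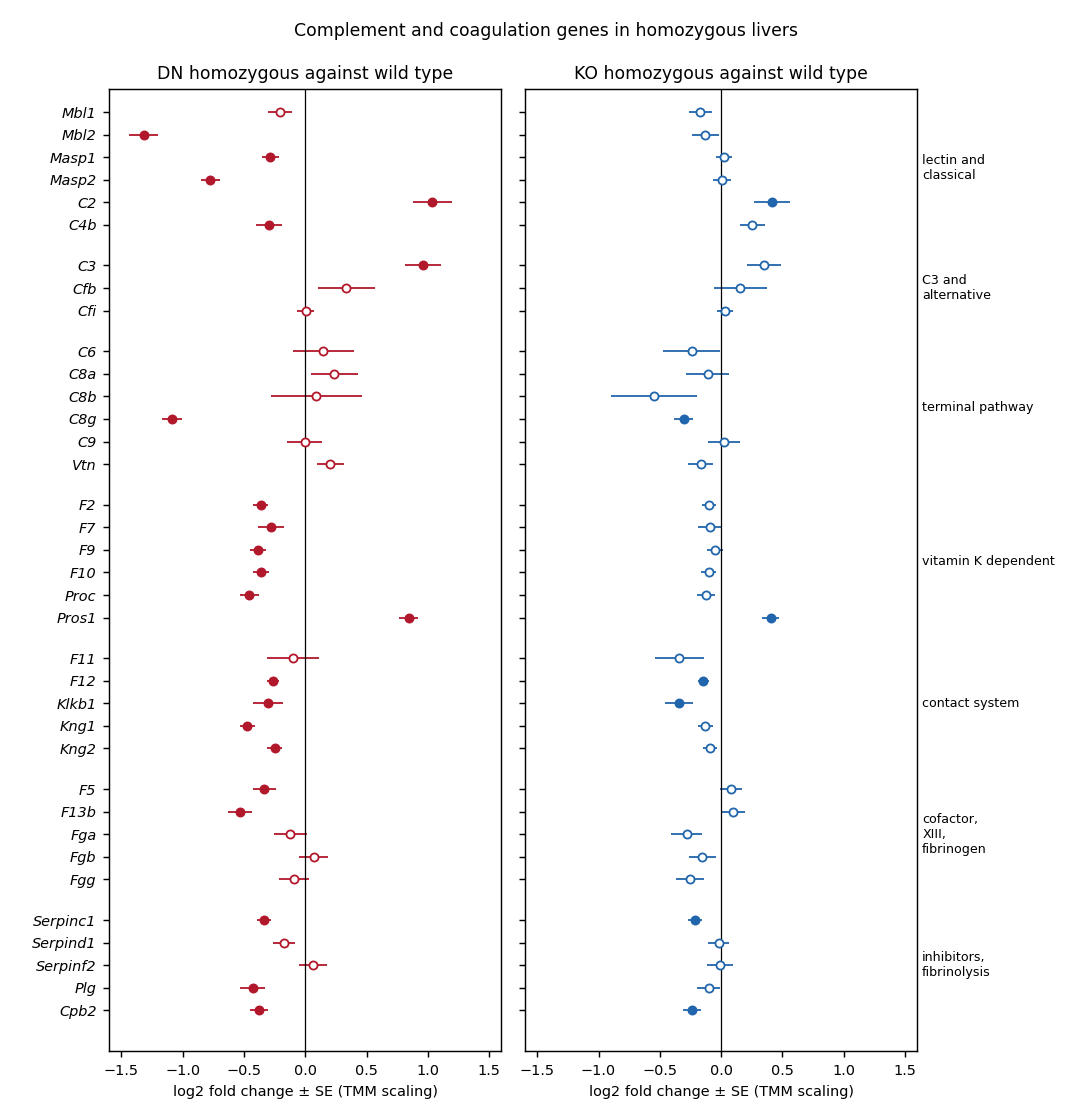
Log2 fold change of each member against wild-type livers of its own study (x axis, TMM scaling) by role (right margin), with bars of 1 SE, for DN homozygous (left, 7 against 7 livers) and KO homozygous livers (right, 8 against 8). Filled circles passed an edgeR adjusted p under 0.05. Mbl2, C8g and Masp2 lie farthest to the left and C2, C3 and Pros1 farthest to the right in the DN panel, and these directions also hold when scaled by library size alone, and 12 of the 19 filled falls change sign under that scaling.

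Scaling matters for these values. The 36 members took up 2.83% ± 0.31 of reads on genes in DN:WT (SD, n = 7) and 3.80% ± 0.20 in DN:HOM livers (n = 7), and the groups did not overlap on this raw share. After TMM scaling their summed level was 29780 ± 2703 CPM in DN:WT and 29510 ± 1254 CPM in DN:HOM. TMM factors were 0.92 to 0.97 in DN:WT and 1.21 to 1.34 in DN:HOM. Genes at the top of the libraries fell at the same time, with albumin at 4.47% ± 0.49 of reads in DN:WT and 2.73% ± 0.14 in DN:HOM, and the desaturase gene Scd1 at 3.71% ± 0.77 and 0.10% ± 0.03. With library size alone the median of all genes tested moved to 0.42, the members called came to 17 higher against 59.1% of all genes and 3 lower against 11.1%, and 12 of the 19 falls became positive values. Against that median, all 19 lay on the low side and all 3 rises on the high side under both scalings, and 24 of the 36 members lay below it. Falls of the smaller size are thus falls relative to the other genes of these livers.

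**Figure D2:**
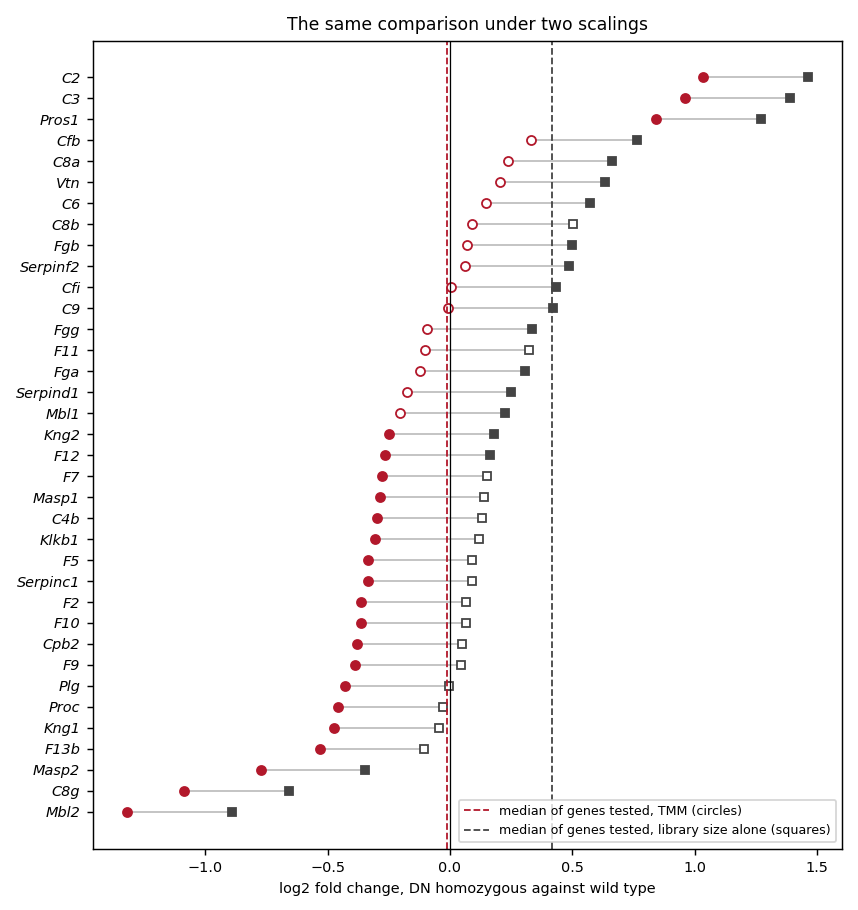
Log2 fold change of each member in DN:HOM against DN:WT livers (x axis, 7 against 7 livers), with TMM scaling (red circles) and with library size alone (grey squares), each pair joined by a line. Filled symbols passed an edgeR adjusted p under 0.05, and the dashed lines mark the median of all genes tested, −0.01 for TMM and 0.42 for library size alone. All members shift by a like amount, and Mbl2, C8g and Masp2 stay below 0 and C2, C3 and Pros1 above it.

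Of the 6 lectin and classical members 4 fell and 1 rose under TMM scaling. Of all genes tested, 30% were called lower and 29.1% higher. With library size alone the log2 fold changes of Masp1 and C4b, 2 of the 4 that fell, became positive, at 0.14 and 0.13. Mbl2, a mannose-binding lectin that starts the cascade on sugar surfaces, was 254.6, 276.0, 282.7, 285.4, 361.9, 364.4 and 374.4 CPM in the DN:WT livers. In the DN:HOM livers it was 94.6, 100.9, 103.8, 119.4, 135.0, 148.2 and 171.4 CPM. The highest homozygous liver lay below the lowest wild-type liver, and the log2 fold change was −1.32 ± 0.12 (SE, edgeR adjusted p = 1.34e-12). With all 48 labelled livers it was −0.90 ± 0.19 (edgeR adjusted p = 2.93e-04).

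Mbl1, the other mannose-binding lectin, differed by −0.20 ± 0.10 and did not pass the test (edgeR adjusted p = 0.071). Masp2, the lectin protease that cleaves C4 and C2, was 255.9 to 328.0 CPM in DN:WT (median 269.7) and 138.6 to 191.5 CPM in DN:HOM (median 163.3). These groups did not overlap either, and Masp2 fell by 0.77 ± 0.08 on the log2 scale (edgeR adjusted p = 8.66e-12). Masp1, the partner protease, fell by 0.29 ± 0.07, with groups that overlapped (edgeR adjusted p = 5.42e-04).

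C2, which provides the protease of the classical C3 convertase, went the other way. It was 7.61 to 12.42 CPM in DN:WT livers (median 10.67) and 16.34 to 23.12 CPM in DN:HOM livers (median 21.85). The groups did not overlap, and C2 rose by 1.04 ± 0.16 (edgeR adjusted p = 4.28e-07) on the reads outside the exons it shares with Gm20547. C4b, the C4 gene of the classical route, fell by 0.30 ± 0.11 (edgeR adjusted p = 0.018). Its near copy C4a, which is no member, was 82.9 ± 23.03 CPM in DN:WT and 14.2 ± 3.92 CPM in DN:HOM.

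C3 is the protein on which all 3 starting routes meet. It was 2564, 2761, 3138, 3331, 3415, 3513 and 3873 CPM in DN:WT livers and 5372, 5813, 6038, 6235, 6306, 6644 and 7159 CPM in DN:HOM livers. Every homozygous liver lay above every wild-type liver, and the log2 fold change was 0.96 ± 0.15 (edgeR adjusted p = 5.14e-07). Cfb, which makes the alternative C3 convertase, stood at 2.24 ± 0.43 and 2.80 ± 0.73 CPM and did not pass (edgeR adjusted p = 0.22). Cfi, the protease that inactivates C3b, was 450.0 ± 22.5 and 447.7 ± 22.8 CPM, with a log2 fold change of 0.01 and a 95% normal interval from −0.13 to 0.14.

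**Figure D3:**
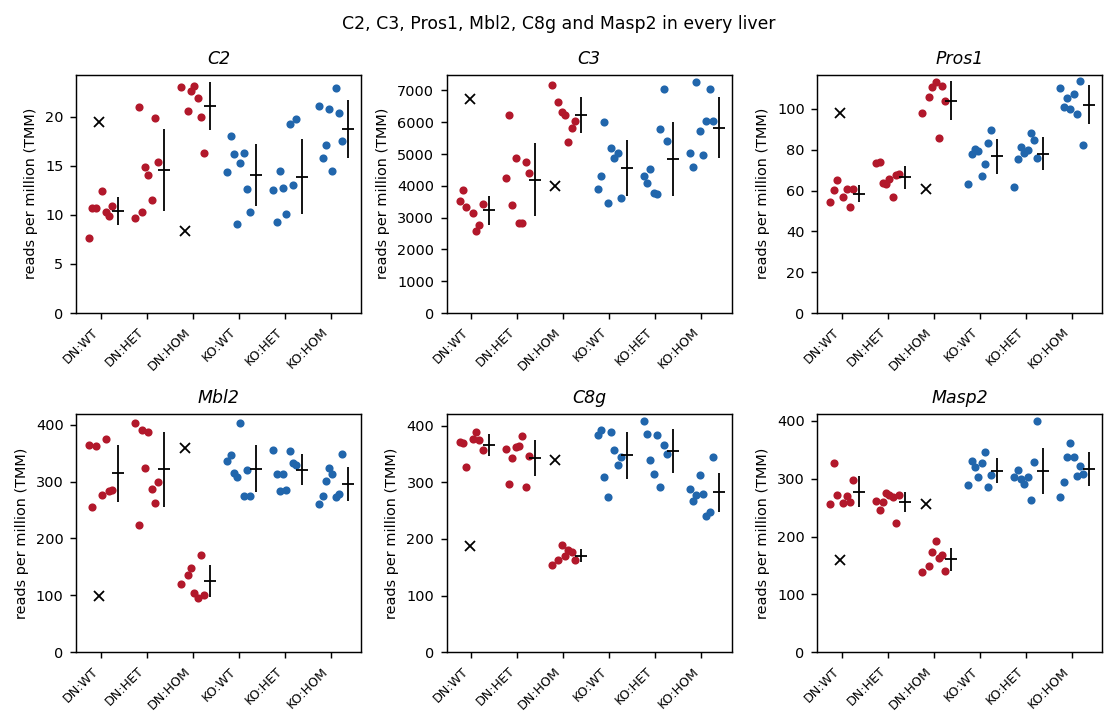
Level of C2, C3, Pros1, Mbl2, C8g and Masp2 in each of the 48 livers (y axis, CPM after TMM scaling, from 0) by genotype group (x axis), with red circles for DN and blue circles for KO livers and black bars for the mean ± SD of the 46 livers used. Crosses mark the library labelled DN:WT animal 10 and the library labelled DN:HOM animal 12, which lie outside their own group in all panels. The DN:HOM circles do not overlap the DN:WT circles in any panel, with library size alone as the scaling the direction is the same, and the KO:HOM circles overlap KO:WT in every panel.

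Of the terminal members, which build the membrane pore and its brake, C8g alone passed the test. C8g encodes the γ chain of C8, a lipocalin bound to the α chain. It was 326.2, 357.3, 368.7, 370.7, 373.8, 375.8 and 388.3 CPM in DN:WT and 154.4, 162.0, 162.2, 169.8, 177.3, 179.7 and 189.4 CPM in DN:HOM livers. Values within each genotype were close together, the groups did not overlap, and C8g fell by 1.09 ± 0.08 (edgeR adjusted p = 4.43e-15). C8a and C8b, the α and β chains, differed by 0.24 ± 0.19 and 0.09 ± 0.37 (edgeR adjusted p = 0.29 and 0.85). C6, C9 and Vtn, the plasma inhibitor of the pore, lay between −0.01 and 0.20 and did not pass.

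The vitamin K dependent members split. These are proteases and a cofactor that need γ-carboxylation to bind membranes. F2, F7, F9, F10 and Proc fell by 0.28 to 0.46 on the log2 scale, 4 of these 5 with groups that did not overlap, where 30% of all genes tested were called lower and 15.8% were lower without overlap. F2, prothrombin, was 1267 to 1376 CPM in DN:WT and 955 to 1081 CPM in DN:HOM (log2 fold change −0.36 ± 0.06, edgeR adjusted p = 2.33e-06). Proc, the anticoagulant protease protein C, was 427.9 to 490.6 and 295.8 to 346.8 CPM (−0.46 ± 0.08, edgeR adjusted p = 1.65e-06).

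Pros1 encodes protein S, the cofactor of protein C. It was 52.1, 54.2, 57.0, 60.1, 60.6, 60.8 and 65.0 CPM in DN:WT and 85.7, 97.9, 103.9, 105.9, 110.7, 111.4 and 113.1 CPM in DN:HOM livers. Every homozygous liver was above every wild-type liver, and Pros1 rose by 0.84 ± 0.08 (edgeR adjusted p = 9.24e-13). With all 48 livers the rise was 0.64 ± 0.10 (edgeR adjusted p = 2.73e-05).

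In the contact system 4 of 5 members fell under TMM scaling, where 30% of all genes tested were called lower. Kng1, the precursor of bradykinin, was 1649 to 1997 CPM in DN:WT and 1203 to 1463 CPM in DN:HOM, without overlap (−0.47 ± 0.06, edgeR adjusted p = 2.14e-08). Kng2, Klkb1 (plasma prekallikrein) and F12 fell by 0.25 to 0.31. F11 differed by −0.10 ± 0.21 and its groups overlapped.

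Among cofactors and fibrin genes, F13b, the carrier subunit of the fibrin-crosslinking factor XIII, fell by 0.53 ± 0.10 (edgeR adjusted p = 9.64e-06). It was 187.5 to 234.5 CPM in DN:WT and 106.7 to 175.8 CPM in DN:HOM livers. F5, the cofactor of factor X, fell by 0.34 ± 0.09 with groups that overlapped (edgeR adjusted p = 1.89e-03). Fga, Fgb and Fgg differed by −0.12 ± 0.13, 0.07 ± 0.12 and −0.09 ± 0.12 and did not pass, at 1999 to 4358 CPM in single livers of these groups.

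Of the inhibitors and fibrinolysis genes, Serpinc1 (antithrombin) fell by 0.34 ± 0.06, Plg (plasminogen) by 0.43 ± 0.10 and Cpb2, which protects fibrin from plasmin, by 0.38 ± 0.08. In all 3 the groups did not overlap. Serpind1 (heparin cofactor II) and Serpinf2 (the plasmin inhibitor) were −0.18 ± 0.09 and 0.06 ± 0.12 and did not pass. In all, 14 members had DN:HOM livers below every DN:WT liver and 3 had them above, where 15.8% and 17.8% of all genes tested did so. With all 48 livers all 3 rises and 17 of the 19 falls kept their call, against 23% and 25% of all genes tested called higher and lower. Under each of the settings tried, 6 members kept both direction and call, which were Mbl2, Masp2, C8g, C2, C3 and Pros1.

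The second comparison asked what the loss of LXRα did. KO:HOM livers showed fewer and smaller changes, with no member whose groups failed to overlap, against 2.18% of all genes tested higher and 0.369% lower without overlap. C2 and Pros1 rose and C8g, F12, Klkb1, Serpinc1 and Cpb2 fell (edgeR), so 2 members were called higher against 11.5% of all genes tested and 5 lower against 7.87%. The median log2 fold change was −0.10 over the members and −0.02 over all genes tested. The share of reads on the members was 3.18% ± 0.38 in KO:WT and 3.31% ± 0.32 in KO:HOM (SD, n = 8 each), with overlap.

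Pros1 had the clearest change. It was 63.2 to 89.9 CPM in KO:WT (median 78.7) and 82.1 to 113.7 CPM in KO:HOM (median 103.1), a log2 fold change of 0.40 ± 0.07 (edgeR adjusted p = 5.29e-05). It was the only member to keep its call under each setting. C2 was 9.11 to 18.1 CPM in KO:WT and 14.5 to 22.96 CPM in KO:HOM (0.41 ± 0.15, edgeR adjusted p = 0.043), and C3 was 0.35 ± 0.14 and did not pass (edgeR adjusted p = 0.068). Among the falls, levels in KO:WT and KO:HOM (SD, n = 8 each) were 347.4 ± 41.7 and 282.2 ± 34.1 CPM for C8g, 211.9 ± 47.9 and 167.9 ± 29.1 CPM for Klkb1, 321.6 ± 26.04 and 273.9 ± 33.4 CPM for Cpb2, 2060 ± 142.8 and 1786 ± 137.8 CPM for Serpinc1 and 493.7 ± 24.1 and 448.8 ± 33.3 CPM for F12. On the log2 scale C8g was −0.31 ± 0.07 (edgeR adjusted p = 2.51e-03), Klkb1 −0.34 ± 0.11, Cpb2 −0.24 ± 0.07, Serpinc1 −0.21 ± 0.05 and F12 −0.14 ± 0.05. Masp2 and Mbl2 differed by 0.01 ± 0.07 and −0.13 ± 0.11 and did not pass. When the pair of doubted DN livers was kept in the fit, which shares its estimate of spread over all groups, Pros1 and Serpinc1 were the KO calls that remained, against 8.79% and 4.12% of all genes tested called higher and lower. With library size alone 4 members were called higher against 16.7% and 1 lower against 2.78%.

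The homozygous effects of the studies were then compared directly. The log2 effect in DN minus that in KO was above 0 for C2 (difference 0.62 ± 0.22), C3 (0.61 ± 0.20), Pros1 (0.44 ± 0.10) and Vtn (0.37 ± 0.15), and below 0 for 12 members (edgeR). For Vtn neither effect passed, at 0.20 in DN and −0.17 in KO (edgeR adjusted p = 0.097 and 0.25). That is 4 members higher against 16.5% of all genes tested and 12 lower against 18.3%. Mbl2 had the greatest difference at −1.19 ± 0.16 (edgeR adjusted p = 1.83e-07), followed by C8g at −0.78 ± 0.11 and Masp2 at −0.78 ± 0.10. F13b differed by −0.63 ± 0.13 and C4b by −0.55 ± 0.15. For C4b the DN value was −0.30 and the KO value 0.25 ± 0.10, which did not pass (edgeR adjusted p = 0.075). The differences of Masp1, F2, F9, F10, Proc, Kng1 and F5 lay between −0.26 and −0.42, and for Masp1, F2 and F10 the sign turned with library size alone. With all 48 livers Masp2, C8g, F13b and C4b remained called lower against 6.42% of all genes tested, and C2, C3, Pros1 and Vtn lost their call at differences of 0.34, 0.34, 0.23 and 0.29, where 4.05% were called higher (edgeR). With library size alone 11 were called higher against 37.7% and 4 lower against 8.5%.

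A single copy of either allele moved no member past the threshold. In DN:HET livers 0 members were called, with edgeR and with DESeq2, against 2.23% of all genes tested called higher and 0.07% lower. An unadjusted edgeR p under 0.05 was found for 7 of the 36 members and for 2084 of the 15711 genes tested. C2 (0.49 ± 0.16), C3 (0.38 ± 0.14) and Pros1 (0.18 ± 0.07) were the 3 with the lowest unadjusted p, at adjusted p of 0.082, 0.19 and 0.22 (edgeR). Their DN:HET values ranged from 9.67 to 21.01, 2837 to 6225 and 56.9 to 74.1 CPM. For C2 and C3 this reaches from the DN:WT range into the DN:HOM range, and for Pros1 it stays below every DN:HOM liver. In the same DN:HET livers 4 of 6 macrophage and 3 of 4 T cell markers rose, with macrophage sums of 184 to 2413 CPM against 129 to 255 CPM in DN:WT, and their part in these values was not tested. Mbl2, C8g and Masp2 had DN:HET means of 322 ± 66.1, 343 ± 32.4 and 260 ± 17.5 CPM (SD, n = 8), close to DN:WT. In KO:HET livers 0 members were called by either tool, against 0.0127% and 0.00636% of all genes tested. There 0 of the 36 members had an unadjusted edgeR p under 0.05, against 981 of the 15711 genes tested.

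Ratios of partner genes within a liver do not depend on how libraries are scaled. They compare reads of the genes, and no protein was measured. Such ratios were taken for 9 pairs in 4 comparisons, 36 exact two-sided permutation tests adjusted together, and the pairs were chosen after values had been seen. The log2 ratio of C8g to C8a was −0.63 ± 0.37 in DN:WT and −1.99 ± 0.11 in DN:HOM livers (SD, n = 7 each), without overlap (exact permutation p = 5.8e-04, the smallest 3432 splits can give, adjusted p = 0.0042). The ratio of C8b to C8a was −2.43 ± 0.43 and −2.50 ± 0.27, with overlap (exact permutation p = 0.73). Reads of the γ chain gene thus shifted against those of the α chain gene, and no shift of the β chain gene against the α chain gene was detected beyond its spread.

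The same held for the lectins. The log2 ratio of Mbl2 to Mbl1 was 0.69 ± 0.30 in DN:WT and −0.44 ± 0.30 in DN:HOM, and that of Masp2 to Masp1 was 0.84 ± 0.13 and 0.35 ± 0.19 (SD, n = 7 each, each with exact permutation p = 5.8e-04 and adjusted p = 0.0042). Pros1 to Proc, cofactor to protease, went from −2.95 ± 0.13 to −1.65 ± 0.14 (n = 7 each, exact permutation p = 5.8e-04, adjusted p = 0.0042). It also rose in KO:HOM, from −2.78 ± 0.35 to −2.26 ± 0.21 (n = 8 each, exact permutation p = 0.0044, adjusted p = 0.020), with overlap. Kng2 to Kng1 rose by 0.23 in DN:HOM (exact permutation adjusted p = 0.0042).

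Of the fibrinogen ratios, Fgg to Fga was −0.43 ± 0.09 in DN:WT and −0.40 ± 0.09 in DN:HOM (SD, n = 7 each, exact permutation p = 0.56). Fgb to Fga rose by 0.19 in DN:HOM (exact permutation adjusted p = 0.040) and by 0.12 in KO:HOM (exact permutation adjusted p = 0.012), both with overlap. With all 48 livers the DN shifts of Mbl2 to Mbl1 (−0.79, exact permutation adjusted p = 0.076), C8g to C8b (−1.01, adjusted p = 0.054) and Fgb to Fga (0.13, adjusted p = 0.27) missed the threshold.

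**Figure D4:**
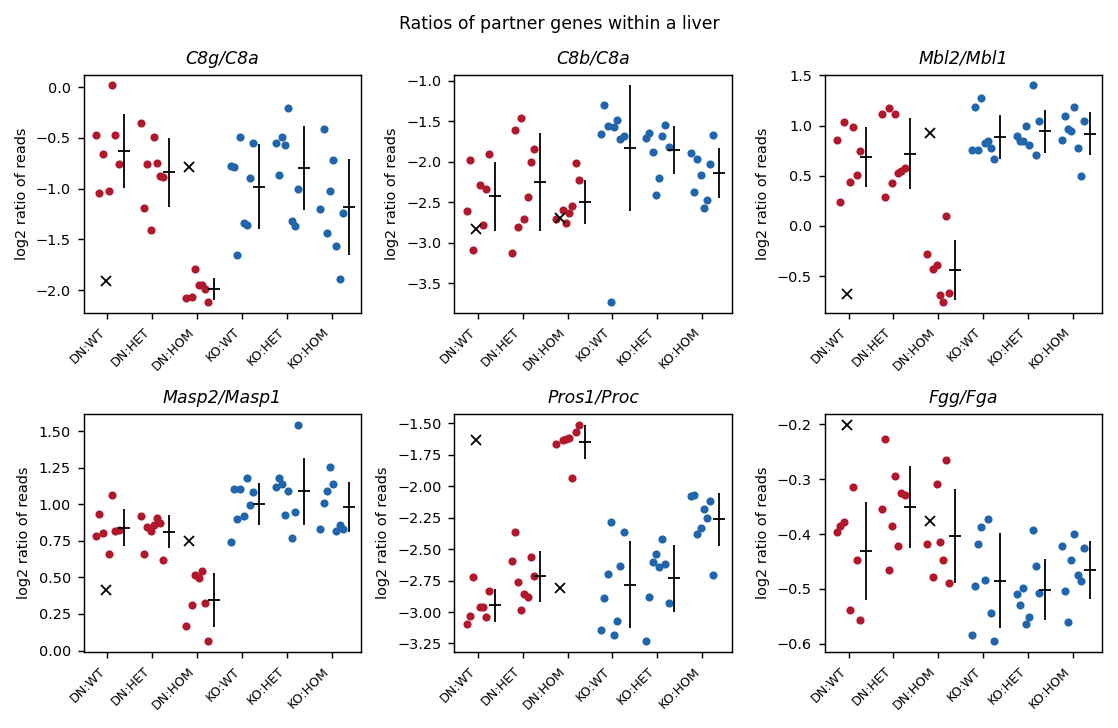
Log2 ratio of reads of partner genes within each liver (y axis, pseudocount 0.5) by genotype group (x axis), with red circles for DN and blue circles for KO livers, bars for the mean ± SD of the 46 livers used, and crosses for the library labelled DN:WT animal 10 and the library labelled DN:HOM animal 12. C8g/C8a, Mbl2/Mbl1 and Masp2/Masp1 are lower and Pros1/Proc is higher in all DN:HOM circles than in all DN:WT circles, while C8b/C8a and Fgg/Fga overlap.

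Livers of the same genotype differed most in C8b. After group means were removed, its SD on the log2 scale was 0.79 over 46 livers, ahead of C6 at 0.48, F11 at 0.43 and C8a at 0.37, while the median over the members was 0.18 and that over the 2924 genes of at least 50 CPM was 0.16. In KO:WT livers C8b was 28.96, 157.0, 187.1, 208.7, 274.5, 327.2, 330.6 and 331.8 CPM. The lowest of these was animal 23, which also had the lowest F11 of its group at 32.5 CPM.

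C8b varied with F11 in these 46 livers, with Pearson's r = 0.92 and Spearman's rho = 0.89 after group means were removed (each permutation p = 1e-05, the smallest that 100000 permutations can give, adjusted p = 1.4e-05 over 10 pairs chosen after the data were seen). Without the 2 livers farthest from the median of C8b, r was 0.87, and it was 0.94 in the 22 DN livers and 0.91 in the 24 KO livers. Of the other pairs tested with C8b, C8a (r = 0.89, rho = 0.90), C6 (r = 0.79, rho = 0.78) and C9 (r = 0.79, rho = 0.77) each had permutation p = 1e-05 for both measures. Members outside the terminal pore were as close, with r = 0.80 for Vtn, 0.79 for Serpinf2 and 0.77 for Plg, which were not among the pairs tested. With C8g the correlation did not pass (r = 0.27, permutation p = 0.11, rho = 0.16, permutation p = 0.30), with r = −0.10 in the 22 DN livers and r = 0.45 in the 24 KO livers.

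Along this axis the share of reads that named no gene also moved, with r = 0.69 to C8b, 0.70 to C8a, 0.74 to C6, 0.69 to C9 and 0.67 to F11. After that share was regressed out, r was 0.85 for C8b and F11, 0.79 for C8b and C8a, 0.58 for C8b and C6 and 0.60 for C8b and C9. The logarithm of depth had r = −0.23 and rho = −0.39 to C8b, and the TMM factor r = 0.20 and rho = 0.23. Their part in the variation was not tested further. The share of reads naming no gene was 26.2% to 34.3% in DN:WT and 24.6% to 26.7% in DN:HOM livers. Its part in the DN comparisons of these genes and in the C8g to C8a ratio was not tested.

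The fibrinogen genes moved in step, with r = 0.96 and rho = 0.93 for Fga and Fgg and r = 0.92 and rho = 0.92 for Fga and Fgb (each permutation p = 1e-05), and r was 0.95 and 0.90 after the share of reads naming no gene was regressed out. Kng1 and Kng2 (r = 0.65, rho = 0.68, each permutation p = 1e-05) and F7 and F10 (r = 0.66, permutation p = 8e-05, rho = 0.54, permutation p = 3.7e-04) also passed, and Mbl1 and Mbl2 did not (r = 0.15, permutation p = 0.31, rho = 0.14, permutation p = 0.36). In the 22 DN and 24 KO livers r was 0.77 and 0.47 for Kng1 and Kng2. It was 0.37 and 0.76 for F7 and F10 and −0.01 and 0.36 for Mbl1 and Mbl2. After the share of reads naming no gene was regressed out, r was 0.67, 0.65 and 0.41 for these pairs in turn. Over the 8 pairs of members within 100000 bases of each other the median r was 0.78, and over the 622 other pairs it was 0.29. F11 and C8b lie on different chromosomes, and C2 and Cfb, which lie end to end, had r = 0.07. The values of all pairs share library and scaling, so that they are given as a description.

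**Figure D5:**
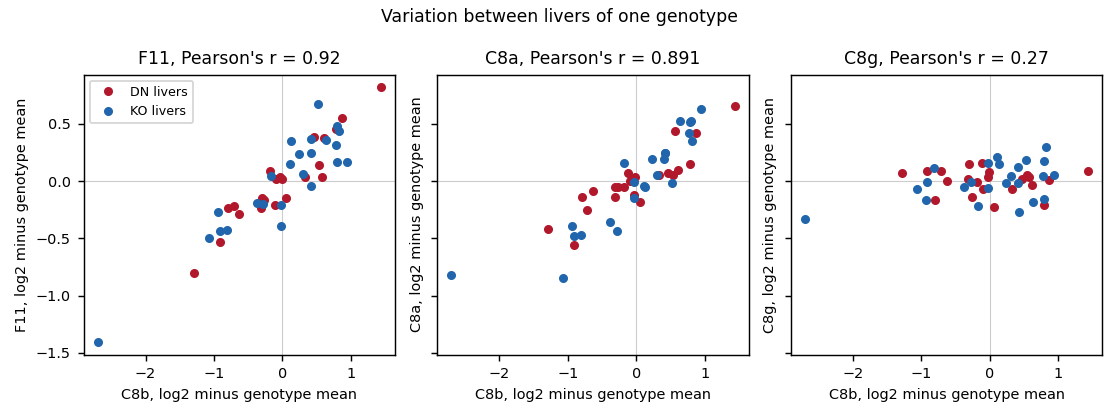
F11, C8a and C8g (y axes) against C8b (x axes) in 46 livers, each as log2 CPM minus the mean of its genotype group, with red circles for the 22 DN and blue circles for the 24 KO livers. F11 (r = 0.92) and C8a (r = 0.89) rise with C8b, C8g has r = 0.27 (−0.10 in DN and 0.45 in KO livers), and KO:WT animal 23 is the circle farthest to the left.

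Other genes of the same systems, from lists of complement and coagulation genes outside the 36, moved in both directions. Of 33 other complement genes tested, 13 rose and 13 fell in DN:HOM, and 13 rose and 3 fell in KO:HOM (edgeR). The shares of all genes tested that were called, for this and the next lists, were 29.1% higher and 30% lower in DN:HOM and 11.5% and 7.87% in KO:HOM. C1qa, C1qb and C1qc, the starting molecule of the classical route and a product of macrophages, rose in both studies, by 1.80, 1.88 and 1.51 in DN:HOM and by 1.65, 1.58 and 1.46 in KO:HOM. So did the receptors C3ar1 and C5ar1. Colec10, a collectin that also binds the Masp proteases, fell by 2.21 ± 0.19 in DN:HOM and rose by 0.56 ± 0.16 in KO:HOM, and Fcna, a ficolin, fell by 3.198 ± 0.19 in DN:HOM. Cfd, the protease that activates factor B, was 135.1 ± 51.4 CPM in DN:WT (SD, n = 7) and 0.16 ± 0.16 CPM in DN:HOM (n = 7).

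Of 28 other coagulation genes tested, 12 rose and 9 fell in DN:HOM, and 7 rose and 3 fell in KO:HOM (edgeR). The plasminogen activators Plat (3.65 ± 0.33) and Plau (2.81 ± 0.36) and the receptor Plaur (3.56 ± 0.48) rose in DN:HOM, and all 3 rose in KO:HOM by 1.10 to 1.92. Ggcx, the carboxylase of the vitamin K dependent proteins, fell by 0.69 ± 0.07 in DN:HOM and 0.24 ± 0.06 in KO:HOM. Lman1, the export receptor of factors V and VIII, fell by 0.87 ± 0.08 in DN:HOM.

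Among known regulators of these genes, 6 of 16 tested rose and 5 fell in DN:HOM. Cebpa fell by 0.73 ± 0.11, and Cebpd (1.13 ± 0.24), Stat3 (0.34 ± 0.12), Socs3 (2.15 ± 0.43) and Osmr (2.44 ± 0.23) rose. In KO:HOM 4 rose and 2 fell, with Hnf4a at −0.35 ± 0.10, Cebpa at −0.33 ± 0.10, Stat3 at 0.40 ± 0.11 and Osmr at 0.94 ± 0.22. Of 10 other secreted hepatocyte proteins, 2 rose (Ambp and Trf) and 7 fell in DN:HOM, with a median of −0.61 (these 10 also serve as the hepatocyte markers), and albumin, transthyretin (Ttr) and Apoa2 fell by 1.15, 0.94 and 1.51. In KO:HOM 4 fell, with a median of −0.26.

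Markers of other liver cells moved with the homozygous groups, and in whole liver fewer cells of a type and less RNA per cell cannot be told apart. All 6 macrophage markers rose in DN:HOM and 5 of 6 in KO:HOM, with summed levels of 129 to 255 CPM in DN:WT, 1242 to 2002 in DN:HOM, 87.4 to 236 in KO:WT and 484 to 2545 in KO:HOM. All 5 Kupffer cell markers fell in DN:HOM, from 131 to 256 CPM to 1.56 to 3.498 CPM, and 3 of 5 fell in KO:HOM (Cd5l, Clec4f and Timd4), where the sum was 21.7 to 66.1 CPM against 74.0 to 299 CPM in KO:WT. The 5 cholangiocyte markers (29.9 to 70.4 CPM in DN:WT, 718 to 1065 in DN:HOM), 4 of the 5 stellate cell markers (59.4 to 101 and 377 to 537 CPM) and all 3 neutrophil markers tested (1.04 to 2.93 and 20.96 to 65.3 CPM) also rose in DN:HOM. In KO:HOM 4 of 4 T cell markers rose, as did 2 of the 3 neutrophil, 2 of the 5 stellate cell, 1 of the 5 cholangiocyte and 1 of the 4 endothelial markers. The sum of the 10 hepatocyte markers was 82130 to 105800 CPM in DN:WT and 56690 to 66410 CPM in DN:HOM. Macrophages are known to make C3 and C2, and several cell types make protein S. The part of these cells in the changes of the members was not tested.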

How the data were processed

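RNA of 48 whole mouse livers was sequenced as stranded poly(A) libraries. Per the labels, the authors aligned reads with STAR 2.5.0a to GRCm39, and they deposited raw read counts per gene in columns for either strand and for both. Here the column of the strand that holds most reads was taken (6.97 to 8.62 times the other). Symbols and positions come from GENCODE vM39 on GRCm39, in which 98.8% of the identifiers were found. Reads that named no gene (24.0% to 35.0%) were left out. The members and the other lists were chosen with earlier results of these data known.

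The model was fitted in edgeR 4.0.16 under R 4.3.3 (filterByExpr, TMM, quasi-likelihood F test, 6 group means, Benjamini-Hochberg adjustment over the 15711 genes tested, threshold 0.05) on 46 livers, the 22 DN livers that could be matched to the study's own source data and all 24 KO livers. All livers of a group are separate animals by their labels. Simulated data had 15256 genes tested, of which 15060 were unchanged. On these the model called 61.2% of genes changed by 0.5, 87.6% of those changed by 1 and 7 of the unchanged genes. In DN:HOM livers 29.1% of all genes tested were called higher and 30.0% lower, so these rates do not cover scaling when many genes change. Alternatives were all 48 livers, DESeq2 1.42.0, upper-quartile scaling, library size alone, no low-count filter, unstranded counts, each study or the compared groups alone, an adjusted p under 0.01 and leaving out the 2 livers under 10000000 reads. Ratios and correlations (pseudocount 0.5) were added after the data had been seen and used Python 3.11.15 with numpy 2.4.6 and scipy 1.17.1. Members were named in full. Values per liver or per group went to the members with the 5 greatest called rises and 5 greatest called falls in each homozygous comparison and, chosen after their values were seen, to Cfb, Cfi, F2, Proc, C8b, F11 and the fibrinogen genes, and other genes are named from the lists, for overlap or near identity, or, for Scd1, for its share of reads, chosen after its values were seen. The lists also held B cell, T cell, endothelium, erythroid and adipocyte markers. In DN:HOM 1 of 4 B cell, 3 of 4 endothelial and 1 of 4 erythroid markers fell and 2 of 4 T cell markers rose (4 of 4 in KO:HOM), and none of the 3 adipocyte markers passed the filter on low counts. A few items of the lists are not reported here.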

Additional observations from a re-analysis of the deposited data

Results flagged for a closer look

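A liver far from the others of its group was sought in 216 sets of a member and a group, by the gap to the nearest liver over the range (Dixon's 95% limit), and 10 were found, where chance alone marks about 1 in 20. DN:HET animal 14 was high for Mbl1 (240.7 CPM), C8a (961.1 CPM) and F7 (79.91 CPM). KO:WT animal 23 was low for Kng1 (1818 CPM) and Plg (1491 CPM), and this liver also held the lowest C8b of the series. DN:HOM animal 33 was high for C6 (437.3 CPM) and Serpinc1 (1678 CPM). DN:WT animal 21 was high for Serpinc1 (1911 CPM), KO:HET animal 15 high for Cfb (5.035 CPM) and KO:HET animal 2 low for Pros1 (61.53 CPM).

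The homozygous effect differed between the studies for 16 of 36 members (edgeR interaction test), 4 higher and 12 lower, where 16.5% and 18.3% of all genes tested were called. With all 48 livers 12 of the 16 lost the call, Mbl2 among them (edgeR adjusted p = 0.054). Differences of the log2 effect, DN minus KO, were 0.62 for C2, 0.61 for C3, 0.44 for Pros1 and 0.37 for Vtn. They were −1.19 for Mbl2, −0.78 for C8g, −0.78 for Masp2, −0.63 for F13b, −0.55 for C4b, −0.42 for F5, −0.35 for Kng1, −0.34 for F9, −0.33 for Proc, −0.31 for Masp1, −0.26 for F2 and −0.26 for F10.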

How the results depend on the processing

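No paired analysis was possible because the numbers in the labels name animals and the genotypes of a study share none. Library size alone was the setting that turned the direction of a member with a call. In DN homozygous livers it gave 17 members higher and 3 lower, and values of 0.22 for Mbl1, 0.14 for Masp1, 0.13 for C4b, 0.42 for C9, 0.066 for F2, 0.15 for F7, 0.044 for F9, 0.065 for F10, 0.16 for F12, 0.12 for Klkb1, 0.18 for Kng2, 0.090 for F5, 0.31 for Fga, 0.34 for Fgg, 0.092 for Serpinc1, 0.25 for Serpind1 and 0.050 for Cpb2. In KO homozygous livers it gave 4 higher and 1 lower, and for the difference of effects 11 higher and 4 lower, with values of 0.0011 for Masp1, 0.29 for Cfi, 0.053 for F2, 0.051 for F10, 0.19 for F12 and 0.19 for Serpinc1. It brings the median of all genes tested to 0.42, 0.09 and 0.31 in these comparisons, against −0.012, −0.022 and −0.004 with TMM. KO homozygous counts were 1 higher and 1 lower with all 48 livers, 4 and 3 with upper-quartile scaling, 1 and 3 with each study alone, 1 and 2 at an adjusted p under 0.01, 1 higher without the low-count filter and 3 lower with the compared groups alone. The difference of effects had 0 higher and 4 lower members with all 48 livers and 1 higher at an adjusted p under 0.01. The other counts of members stayed within 1.5 times. Shares of all genes tested were taken for the fit on 46 livers with TMM, all 48 livers and library size alone. Under the other settings the counts of members cannot be set against all genes. Over single members and settings of the 3 homozygous comparisons 1007 values kept sign and side of the threshold, 68 lost the call, 21 gained one, 23 changed sign with a call in either setting and 33 changed sign without one. Reads were fewest for Cfb (10 to 87 per liver) and C2 (46 to 511), which limits the precision of both.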
